A study of Mus musculus with 18 samples.

Results

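Acyl-CoA thioesterases are enzymes that cut fatty acyl-CoA, the activated form of a fatty acid, into a free fatty acid and coenzyme A. The family was followed through 8 genes, Acot1, Acot2, Acot3, Acot4, Acot8, Acot9, Acot12 and Acot13. They were taken as every probe set of an Affymetrix Mouse430_2 array that the array's annotation pairs with exactly 1 of these symbols, which gave 12 probe sets for 8 of the 18193 genes on the array. Liver RNA of 18 male C57BL/6J mice had been hybridised, 1 mouse per array. The mice came at 5 weeks of age and ate 1 of 3 diets for 20 weeks. The quercetin group had a Western-style diet with 0.05% quercetin, a plant flavonol. The Western group had that diet without quercetin, with 39.9% of energy from fat (20% butter and 1% soy oil), 34% of energy from sucrose and 0.15% cholesterol. The control group had AIN93G, a purified rodent diet. All groups were of that strain and sex, and the labels name no further genetic change.

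Members of the family act in different compartments of the cell and so set the supply of acyl-CoA and free fatty acid in each of them. Acot1 to Acot4 belong to one structural class, encoded in a cluster of sister genes, while Acot8, Acot9, Acot12 and Acot13 are of a different class, with the hotdog fold. In mouse liver, genes of the cluster are known targets of PPAR-alpha, the nuclear receptor that responds to fatty acids, and are induced in fasting.

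Each group had 6 arrays. In the control group, arrays 4 and 5 differed far less than any other pair. The SD of their log2 differences was 0.0689 over 5792 bright probe sets, and no other pair among the 153 came under 0.175. Whether control arrays 4 and 5 held RNA of different mice was not tested. Their mean entered as a single sample, called 4-5, so that n was 6, 6 and 5 in the quercetin, Western and control groups. The median intensity of an array was 16.6 to 23.2 in the quercetin group, 16.3 to 20.8 in the Western group and 12.7 to 18.0 in the control group, so values were quantile normalized. Levels below are normalized intensities on a linear scale. Differences are in log2(value + 16), which understates the change of dim genes. Fold values are these differences taken back from log2, so they compare value + 16 and not the level itself. The number of arrays limits the precision. A gene passed when its adjusted p in limma was under 0.05, with Benjamini-Hochberg adjustment over 13645 genes. The 9 hepatocyte markers on the array summed to 47704 to 51106 in the quercetin group, 47002 to 49649 in the Western group and 48975 to 52307 in the control group. Signal of hepatocyte markers was thus present in every sample, and the brightest markers weigh most in this sum. RNA integrity was read from the log2 ratio of the 3' to the 5' probe set of actin, which was 0.554 ± 0.078 in the quercetin group, 0.544 ± 0.110 in the Western group and 0.687 ± 0.056 in the control group (mean ± SD).

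Of the 8 family genes, 1 rose on the Western-style diet, none fell and 7 did not pass. The gene that rose was Acot9, which encodes a mitochondrial thioesterase with the hotdog fold. Its value + 16 was 2.07-fold that of the control group. Over all genes tested 8.65% passed, 5.49% as higher and 3.16% as lower, so 1 of 8 is near the background. At an unadjusted p under 0.05 there were 4 of the 8 (Acot2, Acot9, Acot12 and Acot13), against 23.3% of all genes. Of the 12 probe sets 1 passed, against 3.01% of all. The median difference of the 8 genes was -0.03, against -0.01 over all 13645 genes (Western minus control, log2). With quercetin in the diet, 1 of 8 was higher than in the control group, again Acot9, where 5.41% of all genes passed, 3.43% as higher and 1.98% as lower. At an unadjusted p under 0.05 it was 1 of 8 (19.9% of all genes), and 1 of 12 probe sets passed (1.92% of all). Between the quercetin and Western groups 0 of 8 passed in limma, and 0 of 8 had an unadjusted p under 0.05. Over all genes 0 passed there (0%), and 392 (2.87%) had an unadjusted p under 0.05. Both comparisons with the control diet share the same control samples. All 8 genes lay above the limit set for dim genes, and so did 11 of the 12 probe sets. The exception was a probe set of Acot12. All these counts come from a model of diet alone. With sample-number sets also in the model, described below, Acot2 also passed as higher and Acot12 as lower in Western against control.

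Acot9 had a lowest, median and highest level of 71.7, 121 and 218 in the quercetin group. In the Western group these were 91.8, 146 and 169. The 5 control samples, numbered 1, 2, 3, 4-5 and 6, had 62.9, 53.0, 61.8, 56.5 and 46.6. All 12 samples on the Western-style diet lay above all 5 control samples, with or without quercetin, and the quercetin group had the wider spread. Groups that did not overlap, in the same direction, were found for 4.17% of all genes in Western against control and for 2.55% in quercetin against control. The log2 levels averaged 7.13 ± 0.46 in the quercetin group, 7.22 ± 0.32 in the Western group and 6.17 ± 0.14 in the control group (SD, n = 6, 6 and 5). The difference of Western minus control was 1.05 on the log2 scale (95% interval 0.65 to 1.45; limma adjusted p = 0.00239). Quercetin minus control was 0.96 (0.56 to 1.36; adjusted p = 0.00624), or 1.94-fold. Quercetin minus Western was -0.09 (-0.47 to 0.29; adjusted p = 0.9999), an interval that runs from 0.720-fold to 1.22-fold and takes in no change.

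Samples are numbered 1 to 6 within each diet in the labels, and numbers 1 to 3 and 4 to 6 are taken below as 2 number sets. The Acot9 difference kept its direction within each set, where it did not pass with 3 samples or fewer a group. Western minus control was 1.15 among samples numbered 4 to 6 (limma adjusted p = 0.0536) and 0.98 among those numbered 1 to 3 (adjusted p = 0.107). Quercetin minus control was 0.84 (adjusted p = 0.161) and 1.11 (adjusted p = 0.0581) in the same sets. With the actin ratio of each array as a covariate, the differences were 0.85 (adjusted p = 0.068) and 0.77 (adjusted p = 0.0992), and neither passed. The part of RNA integrity in the difference was not tested beyond that. Leaving out any 1 sample gave Western minus control between 0.99 and 1.15, with every adjusted p at most 0.00836. Over the alternatives run, other than leaving out samples, its adjusted p was 0.000464 to 0.107, and that of quercetin minus control was 0.00125 to 0.161.

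**Figure D1:**
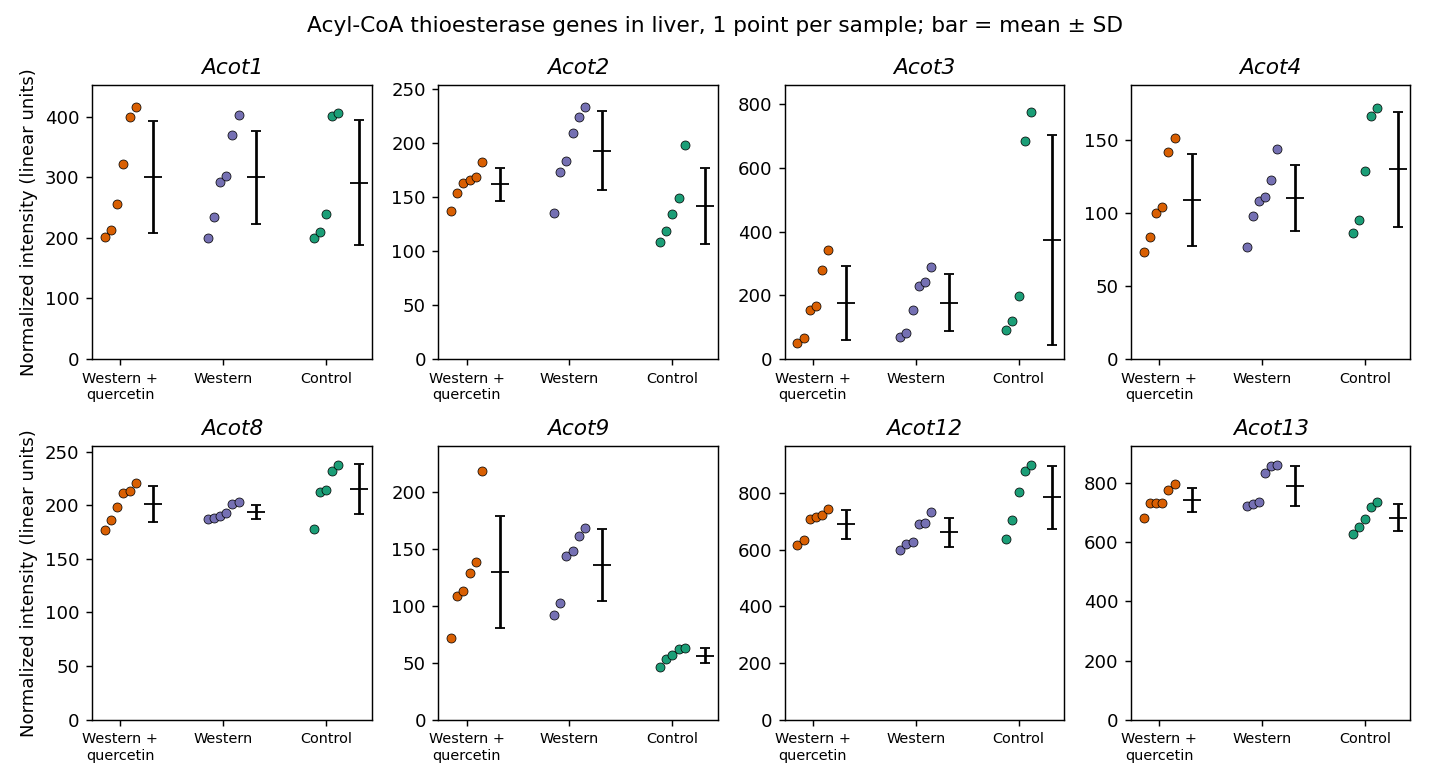
Normalized intensity (linear units, axis from 0) of the 8 family genes in each sample, by diet group. Points are samples, sorted by value within a group, and bars give the mean ± SD (n = 6 quercetin, 6 Western, 5 control). The Acot9 samples of both Western-style groups, from 71.7 to 218, all sit above the control samples, which reach 62.9, while groups of every other gene overlap.

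Most macrophage markers moved with Acot9 between the diets. Of 15 listed markers of macrophages and Kupffer cells, the resident macrophages of the liver, 14 were measured. Against the control diet, 9 of the 14 rose in the Western group and 0 fell, and 8 rose in the quercetin group and 0 fell. Over all genes, 5.49% rose and 3.16% fell in the Western group, and 3.43% rose and 1.98% fell in the quercetin group. The summed level of the 14 was 5373 to 14394 in the quercetin group, 6467 to 11129 in the Western group and 4314 to 5075 in the control group. Marco alone had a lower mean than in the control group, at -0.83 for Western (limma adjusted p = 0.219) and -0.34 for quercetin (adjusted p = 0.689). Trem2 was at 0.01 for Western and 0.18 for quercetin, and did not pass. No marker was at 0 in any sample. The dimmest were Itgam, Trem2 and, in the control group alone, Gpnmb, which had 35.2 to 254 in the quercetin group, 51.3 to 155 in the Western group and 1.72 to 14.2 in the control group. Of 10 markers of stellate cells, which lay down hepatic collagen, 6 rose and 0 fell in each comparison with the control diet. Their summed level was 2621 to 5011 in the quercetin group, 2938 to 4392 in the Western group and 2058 to 2233 in the control group. Of the 9 hepatocyte markers 0 rose and 2 fell in the Western group, with a median of -0.14 (Western minus control, log2), and 6 had an unadjusted p under 0.05. The 2 were Ass1 (-0.73; limma adjusted p = 0.0174) and Tat (-0.79; adjusted p = 0.0253). Among the 6, Apob went the other way, at 0.42, and did not pass (adjusted p = 0.0713). In quercetin against control 0 of the 9 passed in limma, 4 had an unadjusted p under 0.05 and the median was -0.11. Among these 4, Apob was again higher, at 0.44 (adjusted p = 0.0747). Of the remaining marker lists, 1 of 8 endothelial markers rose in each comparison with the control diet, a count near the share over all genes. The only measured adipocyte marker (Fabp4) rose and the only measured exocrine pancreas marker (Cela1) fell in each comparison with the control diet. No cholangiocyte, T cell, B cell, neutrophil, erythroid or muscle marker passed. The part of any of these cell types in the Acot9 difference was not tested. In whole tissue, more cells of a type and more RNA per cell cannot be told apart.

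Acot9 also followed these markers from mouse to mouse within a diet. After the group mean was taken from each sample, Acot9 and the 14 macrophage markers had correlations (Pearson's r over 17 samples) from 0.289 for Itgam to 0.969 for Cd5l, with a median of 0.85 and all 14 above 0. With the 10 stellate markers r ran from 0.284 for Acta2 to 0.925 for Col3a1, with a median of 0.734. With the 9 hepatocyte markers the median was 0.051. Other family genes shared part of this. Acot13 had a median of 0.526 with the macrophage markers (13 of 14 above 0) and 0.465 with the stellate markers (9 of 10). Acot8 had 0.344 (13 of 14) and 0.199 (6 of 10), and Acot2 had 0.192 (12 of 14) and 0.092 (7 of 10). Acot1, Acot3, Acot4 and Acot12 had medians below 0 with both lists. Among all 13645 genes, the 3 most like Acot9 by this measure were Cd5l, Tmsb10 and Cd53. Cd5l encodes a protein secreted by macrophages (r = 0.969, Spearman's rho = 0.909). Tmsb10 encodes an actin-binding thymosin (r = 0.966, rho = 0.917). Cd53 encodes a tetraspanin of leukocytes (r = 0.962, rho = 0.934). The r was 0.977, 0.970 and 0.955 for these 3 after the mean of the number set was taken out as well. The samples share their arrays and normalization, and these values describe the 17 livers and carry no test.

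Acot1, Acot2, Acot3 and Acot4 lie side by side on mouse chromosome 12. In the RefSeq annotation their order is Acot2, Acot1, Gm40474 (a long non-coding RNA), Acot4 and Acot3, followed by Acot5, the pseudogene Gm8385 and Acot6. Their enzymes work in different places: Acot1 in the cytosol on long-chain acyl-CoA, Acot2 on similar substrates in mitochondria, Acot3 in peroxisomes on long-chain acyl-CoA, and Acot4 in peroxisomes on succinyl-CoA and other dicarboxylic acyl-CoA. Since 3 of these 4 genes moved together between samples, as did Acot12 from another chromosome, their promoters are shown beside that of Acot9, the gene that differed by diet. Each runs from 250 bases before the gene's start to 50 after it, 5' to 3' on the gene's strand, from RefSeq on GRCm38.p6. Capitals mark the letters of 3 motifs searched on both strands. The nuclear receptor half-site is AGGTCA, which on the opposite strand reads as TGACCT in these lines. The E-box, CACGTG, reads the same on both strands. The CCAAT box has the letters of its name, and from the opposite strand it appears in these lines as ATTGG.
Acot1, chr12:84009252-84009551, plus strand: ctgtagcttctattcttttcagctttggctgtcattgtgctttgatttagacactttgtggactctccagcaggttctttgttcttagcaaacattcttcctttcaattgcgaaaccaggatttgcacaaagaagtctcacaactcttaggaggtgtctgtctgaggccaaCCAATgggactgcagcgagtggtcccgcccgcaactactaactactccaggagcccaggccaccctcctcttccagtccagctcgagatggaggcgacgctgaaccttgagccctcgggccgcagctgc
Acot4, chr12:84038129-84038428, plus strand: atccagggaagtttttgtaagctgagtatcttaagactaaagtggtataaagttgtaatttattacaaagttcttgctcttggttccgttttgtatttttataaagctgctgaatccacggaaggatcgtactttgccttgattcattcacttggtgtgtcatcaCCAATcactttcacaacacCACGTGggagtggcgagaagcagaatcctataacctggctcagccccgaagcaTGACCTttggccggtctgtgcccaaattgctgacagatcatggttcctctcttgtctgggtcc
Acot3, chr12:84051894-84052193, plus strand, the first of its 2 listed starts: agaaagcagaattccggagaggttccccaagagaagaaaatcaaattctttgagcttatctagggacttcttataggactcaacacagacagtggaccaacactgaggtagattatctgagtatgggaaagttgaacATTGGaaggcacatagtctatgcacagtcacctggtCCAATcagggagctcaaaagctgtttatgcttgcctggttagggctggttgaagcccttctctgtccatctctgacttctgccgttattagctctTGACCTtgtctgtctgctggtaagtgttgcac
Acot12, chr13:91741271-91741570, plus strand: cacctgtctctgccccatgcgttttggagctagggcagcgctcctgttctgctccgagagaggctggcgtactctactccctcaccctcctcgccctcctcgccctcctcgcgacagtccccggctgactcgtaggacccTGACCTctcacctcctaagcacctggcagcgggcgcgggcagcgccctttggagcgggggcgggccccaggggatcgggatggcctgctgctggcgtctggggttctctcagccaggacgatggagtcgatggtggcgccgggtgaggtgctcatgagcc
Acot9, chrX:155262193-155262492, plus strand: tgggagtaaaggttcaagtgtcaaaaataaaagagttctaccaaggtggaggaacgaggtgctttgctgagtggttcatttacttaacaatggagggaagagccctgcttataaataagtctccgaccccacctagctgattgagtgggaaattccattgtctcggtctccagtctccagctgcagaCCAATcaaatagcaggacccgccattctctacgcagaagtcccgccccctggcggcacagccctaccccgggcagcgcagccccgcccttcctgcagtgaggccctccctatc

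Promoters were matched by symbol for 7 of the 8 genes, all but Acot13. Positions are those of a match's first base, counted from the gene's start. The half-site letters stood in the promoters of Acot3, Acot4 and Acot12, at base 18 after the start in Acot3 and at -13 and -110 in Acot4 and Acot12, each time as TGACCT. They were in 16.3% of the 32851 mouse promoters of the same length. The E-box letters stood in Acot4 at -66, and in 7.15% of all promoters. A CCAAT box stood in 6 of the 7 promoters, all but that of Acot12, and in 37.4% of all promoters. It was at -79 in Acot1, at -244 in Acot2, at -113 and -77 in Acot3, at -85 in Acot4, at -155, -115 and -61 in Acot8 and at -63 in Acot9. The textbook PPAR response element, which is AGGTCA repeated in the same direction after 1 base of any kind, was in none of the 7 and in 0.0396% of all promoters. A match describes letters only.

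By sample number, 3 of the 4 cluster genes differed between the number sets, while none of the 4 passed in a comparison of diets. The labels give the numbers no meaning. Mice were kept 3 to a cage, and which mice shared a cage is not given. In a limma model with diet and number set together, 890 of 13645 genes (6.52%) differed between the 8 samples numbered 4 to 6 and the 9 numbered 1 to 3, and 487 (3.57%) were higher in 4 to 6. Of the 8 family genes, 4 were higher in 4 to 6 and 0 were lower. They were Acot1, Acot3 and Acot4 of the cluster, and Acot12. The median difference of the 8 was 0.22, against -0.004 over all genes (4 to 6 minus 1 to 3, log2). What the numbers stand for was not tested.

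Acot1 had the smallest adjusted p of the family by number set. Its level was 322 to 415 in quercetin samples numbered 4 to 6, against 201 to 257 in quercetin samples numbered 1 to 3. Western samples had 301 to 402 in numbers 4 to 6, against 200.1 to 293 in numbers 1 to 3. Control samples had 407 and 401 in numbers 4-5 and 6, against 209, 239.8 and 199.8 in numbers 1, 2 and 3. Every sample numbered 4 to 6 was thus above every sample numbered 1 to 3, across all 3 diets, a pattern shown in that direction by 0.469% of genes. The difference was 0.69 on the log2 scale (SE 0.09; 95% interval 0.51 to 0.88; limma adjusted p = 0.000298), or 1.62-fold. By diet it averaged 8.26 ± 0.43 in the quercetin group, 8.27 ± 0.36 in the Western group and 8.20 ± 0.48 in the control group (log2, SD). Its Western minus control difference was 0.07 (-0.41 to 0.55; adjusted p = 0.893).

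Acot3 had the widest range of the family. The quercetin samples numbered 4 to 6 had 155 to 343, against 51.4 to 167 in those numbered 1 to 3. Western samples had 229 to 288 in numbers 4 to 6, against 67.7 to 153 in numbers 1 to 3. Control samples had 686 and 776 in numbers 4-5 and 6, against 91.4, 199 and 119.8 in numbers 1, 2 and 3. Numbers 4 to 6 were higher in every diet save for quercetin sample 6, whose 155 lay below the 167 of quercetin sample 3, and control samples 4-5 and 6 stood above all others. The difference between number sets was 1.62 (SE 0.24; limma adjusted p = 0.000843), or 3.07-fold. Western minus control was -0.69 over all samples, with an interval from -1.85 to 0.46 (adjusted p = 0.497), and quercetin minus control was -0.79 (-1.95 to 0.36; adjusted p = 0.456). Within numbers 4 to 6 alone, Western minus control was -1.47 and passed (adjusted p = 0.0368), while within numbers 1 to 3 it was -0.39 (adjusted p = 0.714). Over all alternatives its adjusted p was 0.0368 to 0.846. The change of that difference between number sets was -1.09 (SE 0.55) and did not pass (adjusted p = 0.929), nor did that of any other family gene in any comparison. Over all genes that change passed for 0.00733% in Western against control, 0% in quercetin against Western and 0.0586% in quercetin against control. With 2 control samples in numbers 4 to 6, the value within them rests on few mice. The probe set of Acot3 is of a kind whose probes can match more than 1 transcript, per its suffix.

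Acot4 had 99.8 to 151 in the quercetin samples numbered 4 to 6, against 73.2 to 104 in those numbered 1 to 3. Western samples had 111 to 144, against 76.6 to 108, and control samples 172 and 167, against 86.0, 129 and 95.3. The number sets overlapped only in the quercetin group. Acot4 was 0.50 higher in numbers 4 to 6 (SE 0.10; limma adjusted p = 0.00673), or 1.41-fold. Its diet differences were small, at -0.19 for Western minus control (-0.58 to 0.21; adjusted p = 0.611) and -0.22 for quercetin minus control (adjusted p = 0.577). A dimmer probe set of Acot4 gave -0.26 for Western minus control (adjusted p = 0.642 over 45037 probe sets) and followed the brighter one with r = 0.761.

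**Figure D2:**
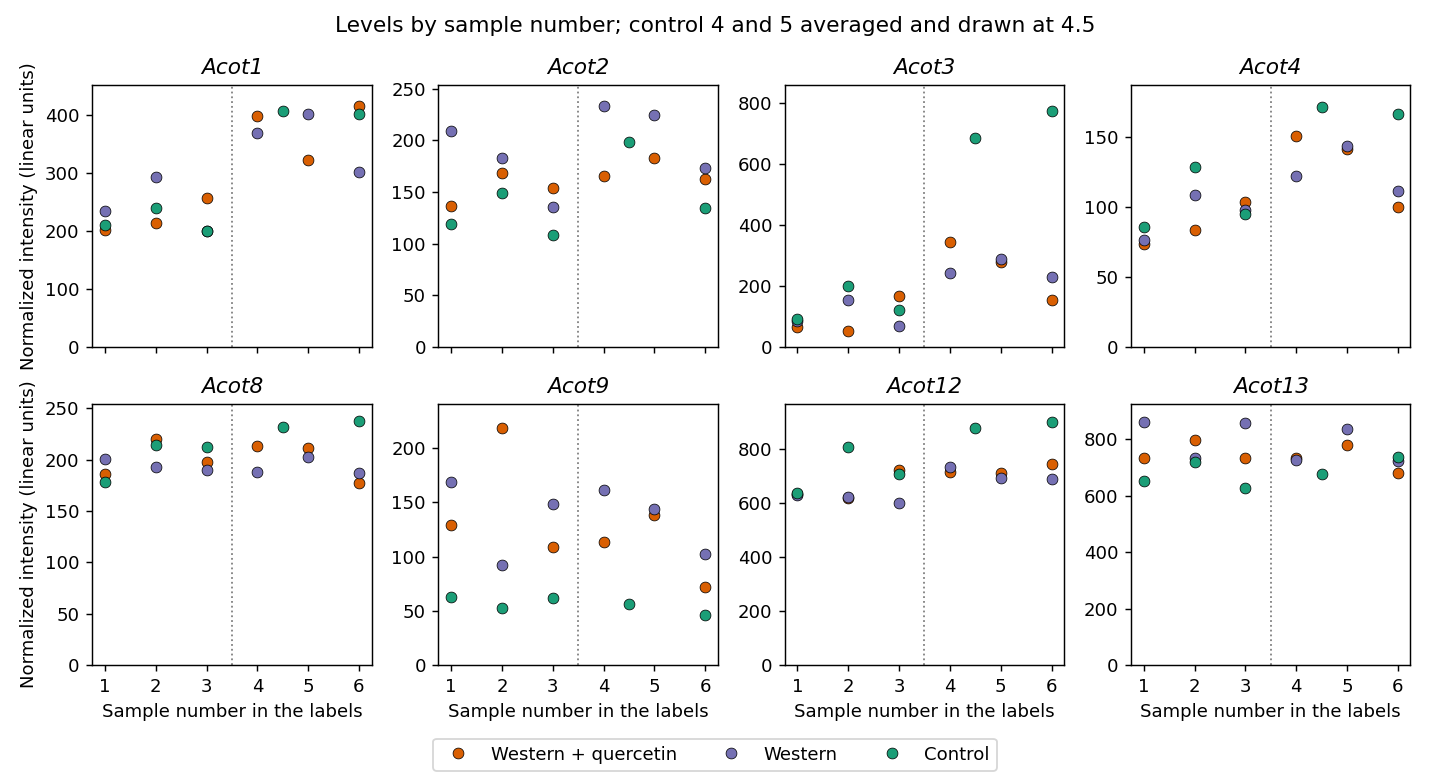
Normalized intensity (linear units, axis from 0) of the 8 family genes against the sample number in the labels, coloured by diet. Each point is a sample, the averaged control 4 and 5 is drawn at 4.5, and the dotted line parts numbers 1 to 3 from 4 to 6. All Acot1 samples right of the line, at 301 to 415, sit above those left of it, at 199.8 to 293, and for Acot9 the control samples lie below those of both Western-style groups, which overlap.

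Acot2, the mitochondrial member of the cluster, did not pass in any comparison of diets. It had 136.9, 164 and 183 as lowest, median and highest level in the quercetin group and 135, 196 and 233 in the Western group. The control samples had 118.9, 149.5, 108 and 134.8 in numbers 1, 2, 3 and 6, and 199 in number 4-5. The groups overlapped, with control sample 4-5 above the Western median. The Western level minus the control level was 0.41 (95% interval 0.12 to 0.70) and did not pass (limma adjusted p = 0.0731). It was 0.39 and passed with the number set in the model (adjusted p = 0.0488). It was 0.50 and also passed without Western sample 3 (adjusted p = 0.0257). Its adjusted p was 0.00647 to 0.345 over the alternatives other than leaving out samples. Quercetin minus Western was -0.22 (-0.50 to 0.06), with all 6 quercetin samples below the Western mean, and quercetin minus control was 0.19 (adjusted p = 0.475). Numbers 4 to 6 minus 1 to 3 was 0.24 for Acot2 and did not pass (adjusted p = 0.155). The other probe set of Acot2, at 0.863 to 15.1 in all samples, was close to the limit for dim genes and gave -0.03 for Western minus control. These probe sets had a correlation of 0.16, so the Acot2 values rest on the brighter one. A probe set paired with both Acot2 and Acot1 followed Acot1 (r = 0.957) more closely than Acot2 (r = 0.650).

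The peroxisomal Acot8, which acts on a broad range of acyl-CoA including those of bile acids, did not pass in any comparison. It had 177, 205 and 220.3 as lowest, median and highest level in the quercetin group and 187, 192 and 203 in the Western group. The control samples had 178, 214, 212, 232 and 237. All 6 Western samples lay below the control mean, but control sample 1 was lower than every one of them. Western minus control was -0.13 (-0.30 to 0.03; limma adjusted p = 0.331), and numbers 4 to 6 minus 1 to 3 was 0.05 (adjusted p = 0.677).

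Acot12 encodes a cytosolic enzyme that hydrolyses acetyl-CoA and is rich in liver. Its levels were 617, 711 and 742 in the quercetin group and 599.9, 658 and 732 in the Western group (lowest, median and highest). The control samples had 637, 804, 705, 877 and 897. Samples of both Western-style groups lay below the control mean in 6 of 6 cases each, and control samples 1 and 3 lay within the range of both groups. For Western minus control the difference was -0.23 (-0.43 to -0.04) and did not pass (limma adjusted p = 0.127), while quercetin minus control was -0.17 (adjusted p = 0.308). It was -0.25 with the number set in the model, which passed (adjusted p = 0.0261), and -0.30 without control sample 1, which also passed (adjusted p = 0.0457), within a range of 0.0261 to 0.842 over the alternatives run. A dimmer probe set of Acot12 gave 0.01 for the same comparison (-0.24 to 0.27), so the probe sets disagreed in direction, and they were correlated with r = 0.632. The third probe set, with 0.346 to 16.4, was below the limit for dim genes. Acot12 was 0.20 higher in samples numbered 4 to 6 (SE 0.06; adjusted p = 0.0387), or 1.15-fold.

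Acot13, known also as Them2, encodes a thioesterase found with mitochondria that binds phosphatidylcholine transfer protein. It had 682, 732 and 796 in the quercetin group and 723, 785 and 862 in the Western group (lowest, median and highest). The control samples had 653, 719, 629, 678 and 737. All 6 samples of each Western-style group lay above the control mean, and control samples 2 and 6 lay within the range of the samples on the Western-style diet. Western minus control was 0.20 (0.05 to 0.36; limma adjusted p = 0.0969), quercetin minus control was 0.12 (adjusted p = 0.402) and quercetin minus Western was -0.09 (-0.23 to 0.06). None of these passed, and numbers 4 to 6 minus 1 to 3 was -0.03 (adjusted p = 0.828).

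**Figure D3:**
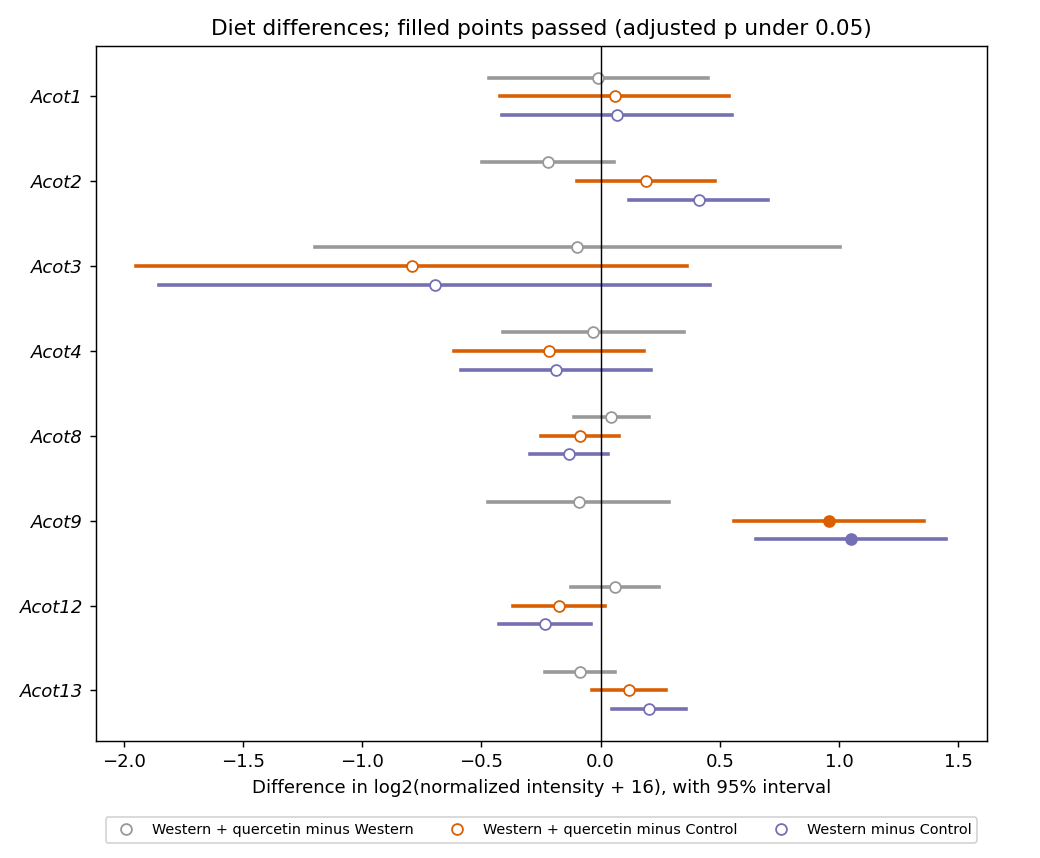
Differences between diet groups for the 8 family genes, in log2(normalized intensity + 16), with 95% intervals as horizontal lines. Filled points passed (limma adjusted p under 0.05) and open points did not. Only Acot9 has filled points, at 1.05 for Western minus control and 0.96 for quercetin minus control, and Acot3 has the widest intervals, from -1.85 to 0.46 for Western minus control.

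How the genes varied together within a diet was described by correlation of their deviations from the group mean over the 17 samples. Acot3 and Acot4, neighbours in the cluster, had r = 0.938. Acot1 and Acot3 had 0.912, and Acot3 and Acot12, on different chromosomes, had 0.891. With the mean of the number set also taken out these were 0.823, 0.559 and 0.635. Acot1 had 0.844 with Acot4 and 0.846 with Acot12, which became 0.411 and 0.515. Acot4 and Acot12 went from 0.801 to 0.456. A dimmer probe set of Acot12 had 0.839 with Acot1, 0.691 with Acot3 and 0.564 with Acot4, before the number set was taken out. The Acot3 probe set is of a kind whose probes can match several transcripts. Whether it also read its sister genes was not tested. Acot2 followed the other cluster genes more loosely, at 0.575 to 0.658. Acot9 had values below 0 with Acot1, Acot3, Acot4 and Acot12, from -0.453 to -0.272. Its values were 0.507 with Acot13, 0.321 with Acot8 and 0.112 with Acot2. These points share arrays and normalization and the values carry no test.

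**Figure D4:**
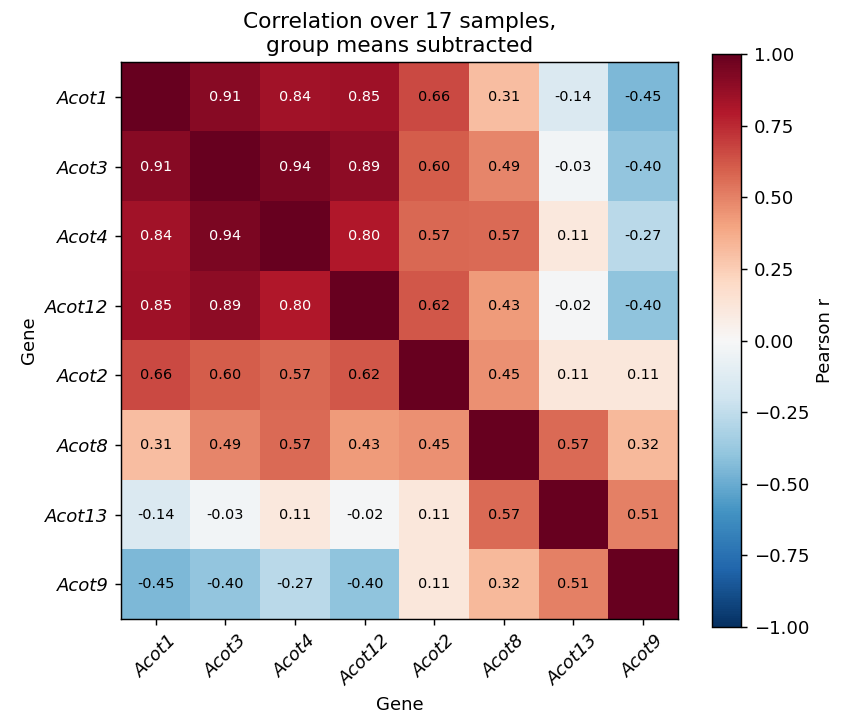
Pearson's r between family genes over 17 samples, after the mean of each diet group was taken from its samples. Colour runs from -1 to 1, and genes are ordered by hand. Acot1, Acot3, Acot4 and Acot12, each by its brightest probe set, form a block with r from 0.801 to 0.938. Acot9 has negative values with all 4. With the mean of the number set also taken out, r within the block ran from 0.411 to 0.823. The Acot3 probe set is of a kind whose probes can match several transcripts.

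Other genes of acyl-CoA metabolism were followed in 7 lists. Over all genes, 5.41% passed in quercetin against control and 8.65% in Western against control, and the counts of the first 4 lists are near those shares. Of 10 measured genes for other thioesterases, 1 rose in the Western group and 0 fell, with a median of -0.09 (log2, Western minus control). It was Ppt1, the lysosomal palmitoyl-protein thioesterase (0.37; limma adjusted p = 0.0289). In quercetin against control 0 of 10 passed in limma, with 1 at an unadjusted p under 0.05 and a median of -0.04. Of 14 acyl-CoA synthetases, which make acyl-CoA and so oppose the thioesterases, 1 rose and 1 fell in each comparison with the control diet (medians -0.001 quercetin, 0.08 Western). Acsl4, which prefers arachidonic acid, was higher by 0.66 in the quercetin group and 0.64 in the Western group (adjusted p = 0.0122 and 0.0111). Acsm3, a medium-chain synthetase, was lower, at -0.42 and -0.44 (adjusted p = 0.0394 and 0.024). Of 12 genes of coenzyme A synthesis and breakdown 1 rose in each and 0 fell (medians -0.09 and -0.09). It was Vnn1, the pantetheinase, at 0.34 for quercetin and 0.38 for Western (adjusted p = 0.0437 and 0.0189). Of 8 acyl-CoA binding genes 0 rose and 1 fell in each (medians -0.007 quercetin, 0.03 Western). It was Acbd4, at -0.33 and -0.29 (adjusted p = 0.00969 and 0.0164).

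Known PPAR-alpha targets, leaving out the thioesterases, were counted in the same way. Of 15 measured, 3 rose and 0 fell in the quercetin group, with a median of 0.16, where 3.43% of all genes rose and 1.98% fell. In the Western group 5 rose and 1 fell, with a median of 0.27, where 5.49% of all genes rose and 3.16% fell (each minus control). The 1 that fell was Cyp4a14, at -0.60 (limma adjusted p = 0.0314). It was at -0.55 in the quercetin group and did not pass there (adjusted p = 0.0611). The smallest p-values belonged to Cd36, a fatty acid transporter, to Acaa1b, a peroxisomal thiolase, and to Vnn1. Cd36 was higher by 0.84 in the quercetin group and 0.83 in the Western group, and Acaa1b by 0.27 in both. Of 15 genes of peroxisomal beta-oxidation 2 rose and 1 fell in each comparison with the control diet (medians 0.02 quercetin, -0.005 Western). Ehhadh, the bifunctional enzyme of that pathway, rose by 0.40 and 0.39, with Acaa1b as the other gene that rose, and Hacl1, a lyase of alpha-oxidation, fell by 0.68 and 0.65 (quercetin, then Western). Of 17 genes of mitochondrial beta-oxidation 0 passed in limma in any comparison, and 2 had an unadjusted p under 0.05 in each comparison with the control diet (medians 0.02 quercetin, 0.03 Western). In quercetin against Western 0 genes of the 7 lists passed in limma, and 0 had an unadjusted p under 0.05. The medians of the lists lay between -0.05 and 0.05 there.

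The same lists were read between the number sets. Of the 15 PPAR-alpha targets 5 were higher in numbers 4 to 6 and 0 were lower, with a median of -0.004, against 3.57% of all genes that were higher. At an unadjusted p under 0.05 there were 8. Among these, Cd36 (-0.30; limma adjusted p = 0.169) and Pdk4 (-0.40; adjusted p = 0.221) were lower and did not pass, and the others were higher. By p-value the first 3 were Cpt1a, the carnitine transferase that lets fatty acids into mitochondria (0.54; limma adjusted p = 0.0014), Pex11a, a peroxisome division factor (0.48; adjusted p = 0.0015), and Ppara, the receptor itself (0.50; adjusted p = 0.0299). Cpt1a had 1984 to 2382 in all 8 samples numbered 4 to 6, against 1058 to 1832 in all 9 numbered 1 to 3, so it did not overlap. Among the other thioesterases 0 of 10 passed in limma, and 0 had an unadjusted p under 0.05. The counts elsewhere were 1 of 14 acyl-CoA synthetases (Acsm5), 2 of 12 coenzyme A genes (Pank3 and Nudt7) and 1 of 8 acyl-CoA binding genes (Acbd6), all higher in 4 to 6. In peroxisomal beta-oxidation 1 of 15 was lower (Crot), and Cpt1a was the 1 of 17 mitochondrial genes. The actin ratio was 0.615 ± 0.078 in numbers 4 to 6 and 0.567 ± 0.122 in numbers 1 to 3 (log2, SD, n = 8 and 9), and its part in these differences was not tested.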

How the data were processed

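Liver RNA of mice on 3 diets was measured on 18 arrays, taken as 1 mouse per array. The authors deposited intensity values on a linear scale, 1 per probe set. How probes were summarised, and any scaling or detection call, is not given in the sources used here. Values were turned into log2(value + 16) and quantile normalized over 45037 probe sets, leaving out 64 controls. Of these, 34945 were paired with 1 gene symbol, 932 with several and 9160 with none in the platform annotation. The brightest probe set stood for each gene, and 4548 genes whose mean lay below the 25th percentile (log2 4.56) were dropped as dim. Control arrays 4 and 5 were averaged, and whether they held RNA of different mice was not tested.

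All 17 samples entered a single fit of 3 group means in limma 3.58.1 (R 4.3.3), with eBayes and two-sided tests. The Benjamini-Hochberg adjustment ran over 13645 genes, or over 45037 probe sets for single probe sets. The 3 comparisons were Western against control, quercetin against control and quercetin against Western. Mice were taken as independent, although cage mates, whom the labels do not name, may be alike. The fit was tested on simulated data. Figures used matplotlib 3.10.9.

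The members, the lists of acyl-CoA genes and cell type markers, the tests and the alternatives were chosen with earlier results of these data known, and the test between number sets was added after the values were seen. All members are named. Of each acyl-CoA list, the text names the 3 genes with the smallest p among those that passed. Of the cell type lists the text gives counts and names only some markers. Cyp4a14, Pdk4, Apob, Marco and Trem2 are named besides, for their direction, as is Cd36 between number sets. For likeness it names the 3 genes with the highest r to a member that passed. Promoters came from RefSeq. The diet of control food plus quercetin was not analysed here. The alternatives are in the closing section.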

Additional observations from a re-analysis of the deposited data

Results flagged for a closer look

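A probe set paired with both Acot10 and Acot9 was left out of the family by the rule of 1 symbol, and it carried a signal above the control samples. Its lowest, median and highest normalized intensity was 98.4, 139 and 220.0 in the quercetin group and 112 (lowest), 144 and 213 in the Western group. The control samples had 46.5 to 88.1, below every sample on the Western-style diet. Western minus control was 0.97 on the log2 scale (95% interval 0.60 to 1.34; limma adjusted p = 0.00532 over 45037 probe sets), and quercetin minus control was 0.94 (adjusted p = 0.00969). It followed the Acot9 probe set with r = 0.886 over 17 samples. Which of the 2 genes gave the signal was not tested. No sample stood apart from its group in the 24 combinations of gene and diet that were checked with Dixon's test.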

How the results depend on the processing

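Few mice per group and values without a background level limit the precision. On the deposited values the median of all genes moved by 0.22 in both comparisons with the control diet (0.22 quercetin, 0.22 Western). Calls there were 3197 higher and 58 lower for quercetin against control (468 and 270 after quantile normalization), and 3641 and 84 for Western against control (749 and 431). With array medians centred they were 575 and 104, and 1108 and 176. Relative to that median, Acot9 was 1.01 higher in quercetin against control and 1.12 higher in Western against control on deposited values.

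Acot9 minus control kept its direction under every alternative run, and lost its call within each number set and with the actin covariate. Counts of family genes that passed in Western against control were 3 on deposited values, 2 with medians centred, 2 with a pseudocount of 64, 2 with a replicate block, 3 with a number-set block, 0 within numbers 1 to 3, 1 within numbers 4 to 6 (Acot3 and not Acot9), 0 with the actin covariate, and 1 to 2 when 1 replicate was left out. The additional genes were Acot2 and Acot13 on deposited values, Acot2 with medians centred, Acot13 with the pseudocount of 64, Acot2 with the replicate block, and Acot2 and Acot12 with the number-set block. Family probe sets gave 3 on deposited values, 2 with the number-set block, 0 in each number set, 0 with the actin covariate and 1 to 2 when 1 replicate was left out. In quercetin against control, genes gave 3 and probe sets 2 on deposited values, and both gave 0 in each number set and with the actin covariate.

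Sample numbers were not taken to pair the groups, since not every same-number correlation was over 0.1, although 4 of 5, 4 of 5 and 5 of 6 were. Same-number correlations of deviations were -0.0559 to 0.259 for Western and control, 0.0802 to 0.324 for quercetin and control and -0.262 to 0.266 for quercetin and Western, and 3 of 5, 4 of 5 and 4 of 6 samples correlated best with their own number. The replicate block gave Acot2 0.37 in Western minus control (limma adjusted p = 0.045), with 717 of all genes passing in quercetin against control, 1143 in Western against control and 0 in quercetin against Western.

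Differences that changed sign, none of which had passed in its comparison, were as follows. On deposited values, quercetin minus control was 0.066 for Acot4, 0.19 for Acot8 and 0.091 for Acot12, and Western minus control was 0.096, 0.15 and 0.038. With medians centred Acot8 was 0.015 and 0.0048. With control 4 and 5 as separate samples Acot1 was -0.029 and -0.020, and with the number-set block -0.011 and -0.0017. Within numbers 4 to 6 Acot1 was -0.097 for quercetin minus control, -0.18 for Western minus control and 0.080 for quercetin minus Western, where Acot4 was 0.040. Quercetin minus Western was 0.070 for Acot4 with probe sets averaged and 0.13 for Acot9 within numbers 1 to 3. With 1 replicate left out, Acot1 ranged from -0.053 to 0.18 (quercetin minus control), from -0.044 to 0.19 (Western minus control) and from -0.11 to 0.090 (quercetin minus Western), where Acot3 ranged from -0.33 to 0.16, Acot4 from -0.12 to 0.060 and Acot9 from -0.24 to 0.042. The cause of these changes was not tested. Of 357 differences of a family gene under settings other than leaving out samples, 323 kept their direction and their side of the threshold, and of 288 with 1 sample left out, 264 did.

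Counts over all genes moved by more than 1.5 times in these settings, for quercetin against control and Western against control: 3255 and 3725 on deposited values, 224 and 88 within numbers 1 to 3, 32 and 296 within numbers 4 to 6, and 155 and 223 with the actin covariate. Only for quercetin against control, the 2 groups alone gave 466. Leaving out control 6 gave 456 and 767. Leaving out western 4 gave 746 and western 5 gave 780 (Western against control), and quercetin 2 gave 478 and quercetin 5 gave 483. Without probe sets whose suffix marks shared probes, Acot3 had no value.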
